A study of Homo sapiens with 12 samples.

Results

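UCI-1014 is an analog of UCI-1001, a compound the study examined for activity on mutant p53, and the comparison described here is UCI-1014 against its solvent DMSO in TOV-112D cells. The libraries were chosen by their labels. They are the 2 UCI-1014 libraries and the 2 DMSO libraries, 4 of the 12 RNA-seq libraries of the series, and the 2 UCI-1001 libraries entered the same fit. TOV-112D is a human ovarian carcinoma cell line labelled R175H, a p53 substitution that impairs DNA binding, and all 6 TOV-112D libraries share that genotype. The treatments lasted 3 h. The dose of UCI-1014 is not given in the sources used here. The other 6 libraries came from Saos-2 osteosarcoma cells, either null for p53 or carrying the wild-type form, and were not used. The labels number the libraries 1 and 2 within each group and do not say whether they came from separate cultures, so the p-values measure only the spread between these libraries.

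Many of the gene lists used here stand for stress programs. When unfolded proteins build up, heat shock factor 1 binds inverted repeats of the letters GAA in promoters and raises HSP70, HSP90 and their cochaperones, which hold and refold proteins. In oxidative or electrophilic stress, the factor NRF2 raises enzymes of glutathione and heme metabolism. In the integrated stress response, phosphorylation of eIF2-alpha slows translation in general while ATF4 is still made, and ATF4 raises genes of amino acid supply and the factors CHOP and ATF3. The immediate early genes of the AP-1 and EGR families respond within minutes to kinase signals and to stress. Wild-type p53 raises genes such as CDKN1A, MDM2 and SESN2, and several of these are also targets of the other programs.

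Stretches of the RefSeq promoters (GRCh38.p14, 250 bases before to 50 after a transcript start) of genes that rose are shown first because the groups below are ordered by these programs. Capitals mark the letters searched on both strands. For the heat shock element these were GAANNTTC and TTCNNGAA, found in 10.5% of the 15481 promoters of tested genes. The 3-unit forms, which extend either of these by NN and 1 further unit and so contain them, were found in 0.349%. Of the genes shown, HSPA6 and HSP90AA1 hold a 3-unit form. The stretches lie at chr1:161524345-161524493 (plus strand) for HSPA6, chr6:31815422-31815459 (plus) for HSPA1A, chr6:31827618-31827655 (plus) for HSPA1B, chr19:14518422-14518489 (minus) for DNAJB1, chr14:102087090-102087147 (minus) for HSP90AA1 and chr7:1160345-1160382 (minus) for ZFAND2A.
HSPA6: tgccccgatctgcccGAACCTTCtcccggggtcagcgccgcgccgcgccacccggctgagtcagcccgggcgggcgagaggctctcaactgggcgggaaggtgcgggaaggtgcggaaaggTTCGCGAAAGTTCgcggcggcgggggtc
HSPA1A: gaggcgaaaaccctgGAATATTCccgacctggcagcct
HSPA1B: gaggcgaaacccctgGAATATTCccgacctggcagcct
DNAJB1: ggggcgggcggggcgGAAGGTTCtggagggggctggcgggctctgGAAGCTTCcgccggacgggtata
HSP90AA1: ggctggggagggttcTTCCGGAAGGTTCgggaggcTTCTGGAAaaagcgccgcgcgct
ZFAND2A: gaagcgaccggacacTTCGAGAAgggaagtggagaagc

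For the ATF4 and CHOP composite element the letters were TGATGNAA, found in 2.00% of the same promoters and shown because CHAC1, ATF3, CEBPG and ASNS are among the genes of the integrated stress response described below. In CHAC1 the match is on the opposite strand. The letters were not in the promoters listed for DDIT3, SESN2 and TRIB3, nor the heat shock letters in that of HSPH1, and some genes shown have a further promoter without a match. The stretches lie at chr15:40953247-40953284 (plus) for CHAC1, chr1:212565201-212565238 (plus) for ATF3, chr19:33374056-33374093 (plus) for CEBPG and chr7:97872454-97872491 (minus) for ASNS. The core of the serum response element, searched as its common spellings and found in 0.200% of promoters, stands in EGR1 at chr5:138465359-138465398 (plus).
CHAC1: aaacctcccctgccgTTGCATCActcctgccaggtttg
ATF3: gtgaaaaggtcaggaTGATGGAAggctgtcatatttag
CEBPG: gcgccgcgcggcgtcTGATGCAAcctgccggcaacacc
ASNS: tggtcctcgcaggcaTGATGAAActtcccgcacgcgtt
EGR1: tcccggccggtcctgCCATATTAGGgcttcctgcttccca

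A match describes letters in a window and says nothing about binding. Among lists of genes for which at least 80% of the members had a promoter, the heat shock letters stood in 42.9% of 14 promoters of HSP70 and HSP110 genes, 26.1% of 23 of J-domain genes and 33.3% of 9 of chaperonin genes. In the interferon list, in which 2 of 20 genes rose, they stood in 33.3% of 21 promoters, as often as in chaperonin genes. The 3-unit forms stood in 14.3% of the HSP70 and HSP110 promoters and 8.7% of the J-domain promoters, and in none of the chaperonin or interferon lists. TGATGNAA stood in 16.7% of 24 promoters of integrated stress response regulators and 20% of 25 of amino acid genes. Promoters were matched for 10499 of 14177 tested genes (74.1%), too few to compare the share by size of change.

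Each of the 4 libraries held 17762027 to 20717898 counts, and the low-count filter left 14177 genes. In all 4 libraries the mesenchymal filament gene VIM lay between 7699 and 8115 CPM (counts per 1000000, with the scaling factors of TMM), the epithelial keratins KRT7, KRT8, KRT18 and KRT19 had at most 10 counts, and the ovarian carcinoma markers PAX8 and MUC16 at most 1. EPCAM lay between 1.80 and 3.09 CPM. The fibroblast genes LUM (506 to 517 CPM) and DCN (166 to 181 CPM) were present in both groups, while CD3E, HBB, CDH5 and other blood and endothelial markers were at or near 0, with the pan-leukocyte gene PTPRC highest at 1.49 to 2.94 CPM. As these are bulk samples, fewer cells of a kind and less RNA per cell cannot be told apart.

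UCI-1014 changed a large share of the transcriptome within 3 h. At an adjusted p-value under 0.05 in edgeR's quasi-likelihood test, 6677 of 14177 genes were called (47.1%), 3365 higher (23.7%) and 3312 lower (23.4%). The last 2 shares are the background to the list counts below. Calls were more frequent at higher levels. Of genes with a mean under 1 CPM 8.79% rose and 3.69% fell, and of those over 100 CPM 31.7% rose and 34.1% fell. Lists of abundant genes therefore have a higher background than these 2 shares. The groups did not overlap in 10407 genes (73.4%), which was true of 6674 of the called genes. The counts in each direction were alike, but the sizes were not. The median rise was 0.48 and the median fall -0.32 on the log2 scale, and 640 genes rose over 2-fold (4.51%) against 138 that fell over 2-fold (0.973%). The split depends on scaling. With library size alone in place of TMM, the median of all genes moved by -0.14 on the log2 scale, 30.1% of the calls were rises and 5508 genes were lower.

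**Figure D1:**
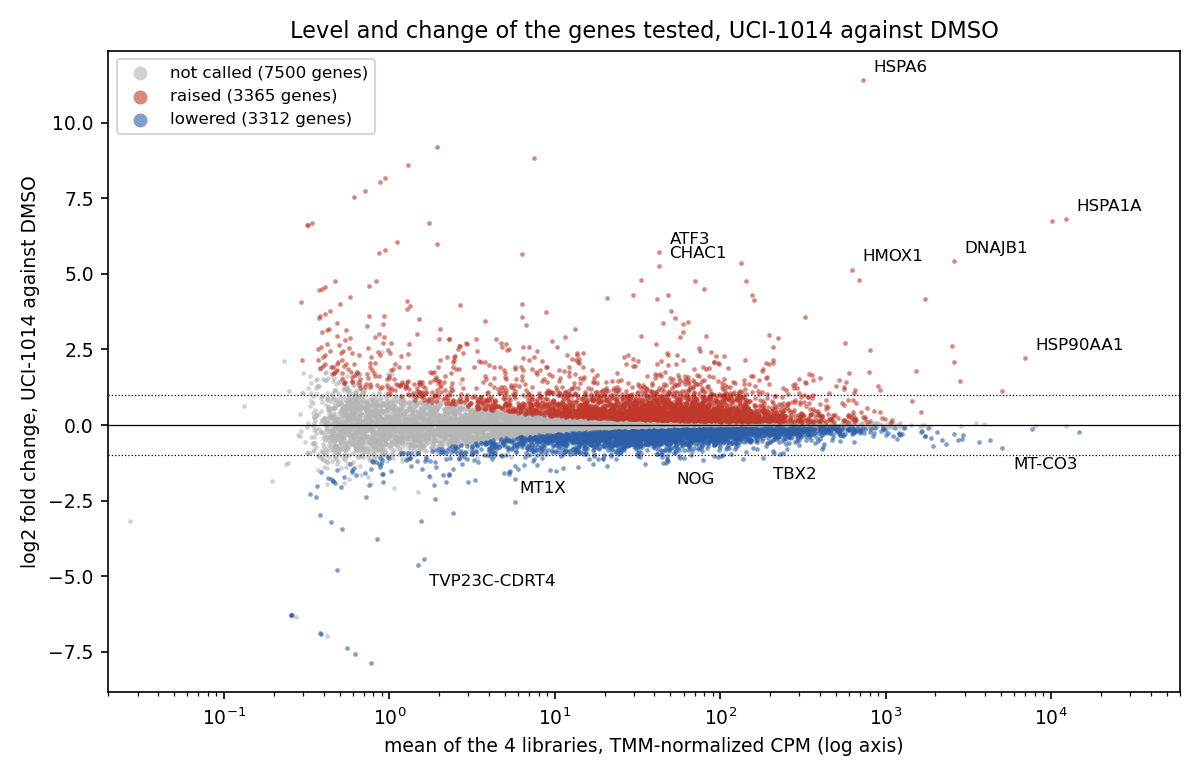
Each point is a gene, with its mean over the 4 libraries in TMM-normalized CPM (log axis) against its log2 fold change for UCI-1014 against DMSO. Rises (red) reach much larger sizes than falls (blue), and the dotted lines mark 2-fold. Points far from 0 at the lowest levels are mostly genes with no or few counts in a group, whose fitted change is not a measured size.

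Most calls were small. A log2 change under 0.5 in size was found for 4263 called genes (63.8%), of which 1759 rose and 2504 fell. Falls outnumbered rises below 0.25 (1063 against 580) and between 0.25 and 0.5 (1441 against 1179), and rises outnumbered falls above this, with 966 against 670 between 0.5 and 1 and 439 against 114 between 1 and 2. The smallest rise called was 0.10 and the smallest fall -0.08. Among the most abundant genes with such small calls, APP, the amyloid precursor, lay at 917 and 915 CPM with DMSO and at 1036 and 1080 CPM with UCI-1014 (log2 fold change 0.21, SE 0.03, adjusted p 0.00015). The dynein heavy chain DYNC1H1 lay at 872 and 873 CPM against 1036 and 1016 CPM (0.23, SE 0.04). The alpha-tubulin TUBA1B lay at 2837 and 2873 CPM against 2327 and 2378 CPM (-0.28, SE 0.03). In DYNC1H1 and TUBA1B the groups were separated by several times the difference between libraries of a group. For APP the gap was smaller relative to the difference between the UCI-1014 libraries. When tested against a fold of 1.2 in place of no change, 1863 genes were higher and 1061 lower, so the falls lost more of their calls. The calls on APP and DYNC1H1 were lost with library size scaling (adjusted p 0.083 and 0.070).

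**Figure D2:**
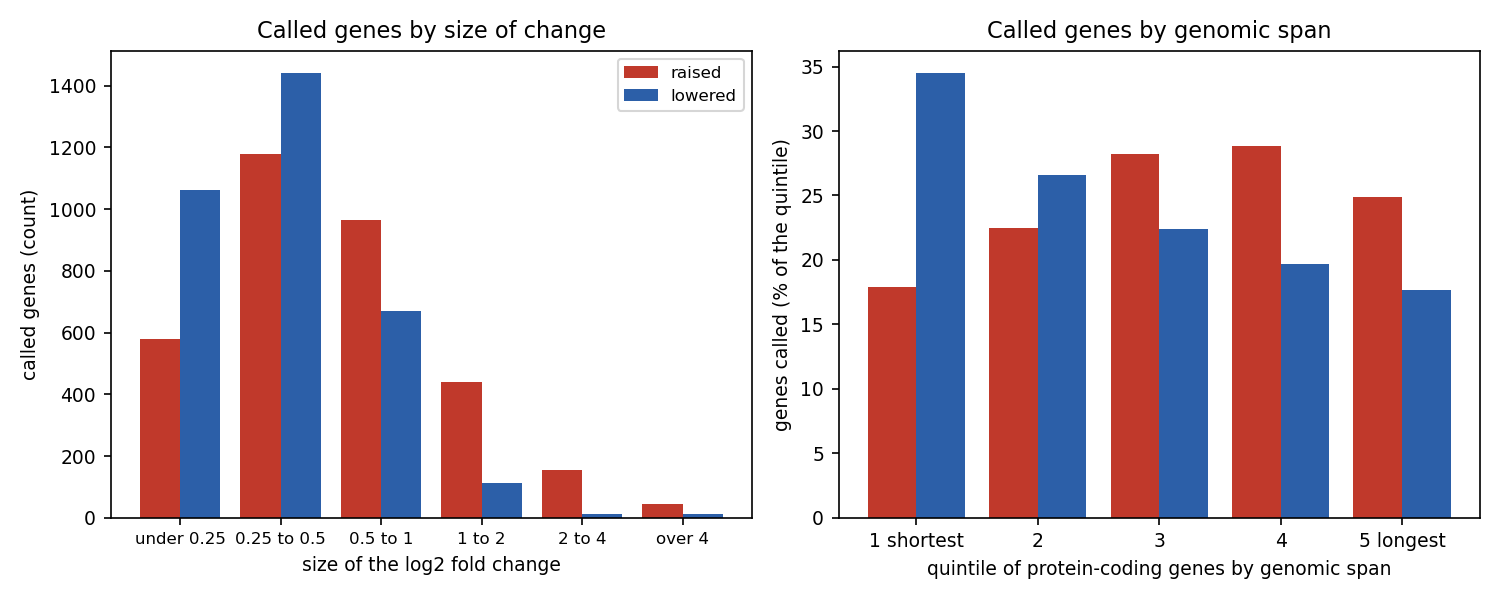
Left, the number of called genes in each class of log2 fold change, raised (red) and lowered (blue), with falls ahead below 0.5 and rises ahead above. Right, the percent of protein-coding genes called in each direction by quintile of genomic span, where the lowered share goes from 34.5% in the shortest quintile to 17.7% in the longest.

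The largest log2 rise of a single gene was that of HSPA6 and the largest gain in CPM that of HSPA1A, both heat shock protein genes. HSPA6, a strictly inducible HSP70, lay at 0.618 and 0.433 CPM with DMSO and at 1745 and 1174 CPM with UCI-1014 (log2 fold change 11.41, SE 0.33, adjusted p 1.9e-12). HSPA1A, the major inducible HSP70, lay at 227 and 207 CPM against 25117 and 23715 CPM (6.81, SE 0.06, adjusted p 8.8e-18), and its copy HSPA1B at 190 and 183 CPM against 21007 and 19050 CPM (6.75, SE 0.08). HSPA1A and HSPA1B, and likewise HSPA6 and its pseudogene HSPA7, are near-identical, so the split of reads between them is uncertain. For each of these genes both UCI-1014 libraries lay far above both DMSO libraries. For HSPA1A and HSPA1B the gap was many times the difference between libraries of a group. Relative to the gap, the UCI-1014 libraries differed more for HSPA6. Together HSPA1A and HSPA1B took 25.9% of all CPM gained by genes that rose, and the 10 largest gains took 44.7%.

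Of 13 HSP70 and HSP110 genes tested, 10 rose and none fell, with a median of 1.45 against -0.02 over all genes tested. HSPH1, the HSP110 that exchanges nucleotide on HSP70, lay at 183 and 177 CPM against 3430 and 3097 CPM (4.18, SE 0.06), and HSPA8, the constitutive HSP70, at 1521 and 1505 CPM against 4256 and 3994 CPM (1.45, SE 0.04). Their J-domain partners, which deliver clients to HSP70, rose in 13 of 17 cases and fell in 1, with a median of 0.35. DNAJB1 lay at 115 and 122 CPM against 5467 and 4678 CPM (5.42, SE 0.10, adjusted p 3.5e-14), DNAJB4 changed by 3.42 and DNAJA1 by 2.49. DNAJB1 lies on chromosome 19 at 14514769 to 14560391 (GRCh38, GENCODE), HSPA6 on chromosome 1 at 161524540 to 161526894 and HSPA1A on chromosome 6 at 31815543 to 31817946, the last 2 with a single exon. BAG3, which couples HSP70 to small heat shock proteins and autophagy, lay at 46.7 and 48.3 CPM against 1427 and 1226 CPM (4.80, SE 0.09), and of 10 BAG and small heat shock protein genes 5 rose and 1 fell (median 0.54).

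The HSP90 machinery rose in 13 of 17 genes and fell in 2 (median 1.13). HSP90AA1, the inducible cytosolic HSP90, lay at 2442 and 2472 CPM against 11729 and 11151 CPM (2.22, SE 0.04), and HSP90AB1 at 3166 and 3221 CPM against 7040 and 6850 CPM (1.12, SE 0.03). Among cochaperones, CHORDC1 changed by 2.86, the immunophilin FKBP4 by 1.73 and the ATPase activator AHSA1 by 1.40, whereas FKBP5, a glucocorticoid-responsive immunophilin, fell by 0.25. All 8 subunits of the chaperonin CCT ring rose (median 0.38), from TCP1 at 1.30 to CCT7 at 0.15. In the mitochondrial matrix the chaperonin HSPD1 lay at 975 and 995 CPM against 4318 and 4072 CPM (2.09, SE 0.04), with 7 of 12 genes of that list higher and 2 lower. The endoplasmic reticulum genes moved little as a list, with 9 of 22 higher (40.9%, against 23.7% of all genes), 4 lower (18.2%, against 23.4%) and a median of 0.04. In it the transcription factor XBP1 changed by 1.48 and the sensor kinase EIF2AK3 by 1.00, the HSP70 of that compartment HSPA5 by 0.26 (SE 0.03), and HSP90B1 lay at 1101 and 1104 CPM against 1120 and 1138 CPM (adjusted p 0.41). With library size scaling the median of the list was -0.09.

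Of 18 ubiquitin precursor and ubiquitin-linked quality control genes 11 rose (61.1%, against 23.7% of all genes) and 4 fell (22.2%, against 23.4%), with a median of 0.27. ZFAND2A, a stress-induced proteasome adaptor, lay at 7.22 and 5.52 CPM against 288 and 236 CPM (5.35, SE 0.15). The polyubiquitin gene UBB lay at 691 and 692 CPM against 2454 and 2306 CPM (1.78, SE 0.04). RPS27A, in which ubiquitin is fused to a ribosomal protein, changed by -0.08 without a call. Of 33 proteasome subunits 17 rose, 1 fell and none rose over 2-fold, with PSMD12 at 0.60 as the largest and a median of 0.11, which was -0.03 with library size scaling. The autophagy list rose in 14 of 22 genes and fell in 2 (median 0.30), led by the receptor SQSTM1 (173 and 169 CPM against 514 and 578 CPM, 1.67) and by MAP1LC3B at 1.50.

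**Figure D3:**
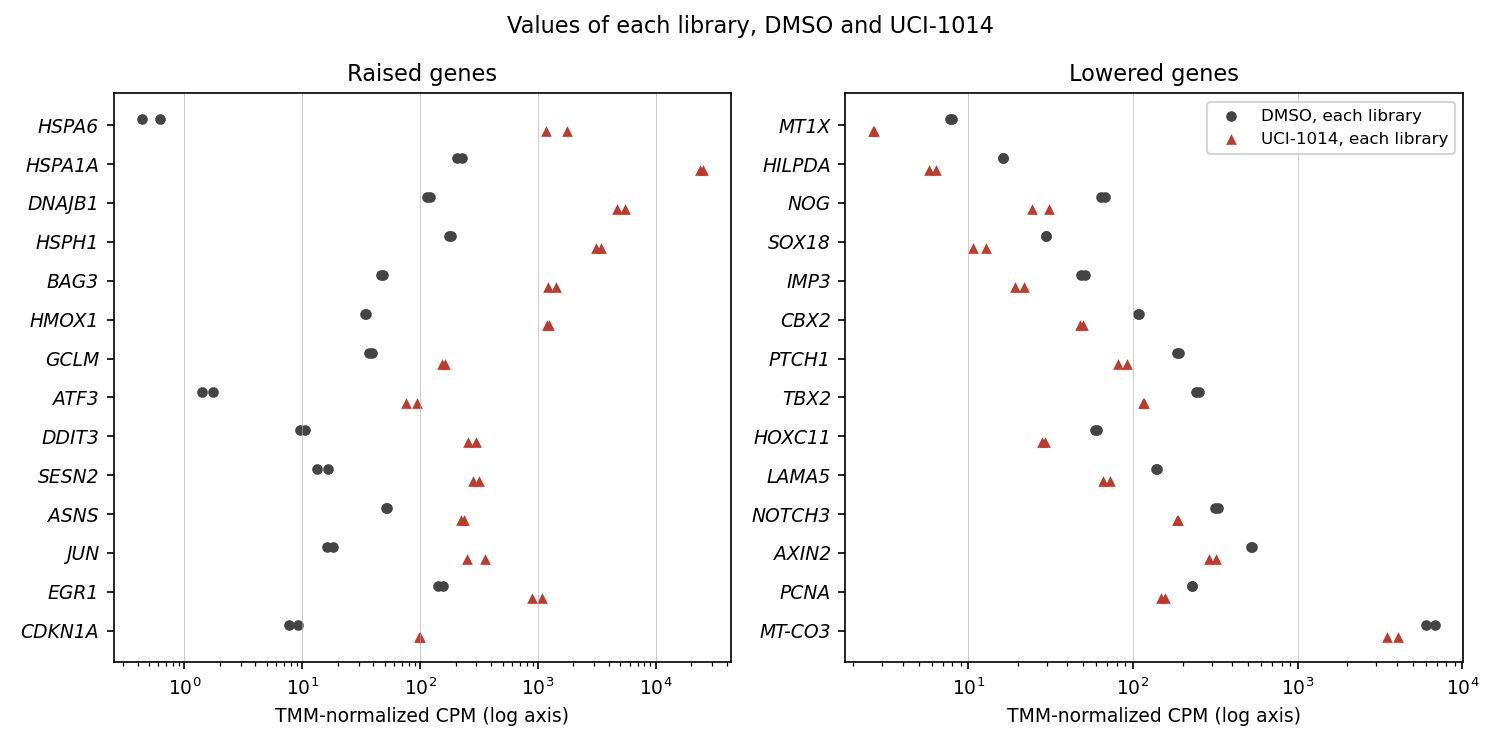
TMM-normalized CPM (log axis) of each DMSO library (circles) and each UCI-1014 library (triangles) for 14 genes that rose (left) and 14 that fell (right). In all 28 genes the UCI-1014 libraries stand clear of the DMSO libraries, with wider gaps on the left than on the right. The genes were chosen with their values known, so the separation follows from the choice.

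NRF2 targets moved in both directions, with HMOX1 far ahead. Over 2-fold, 8 of the 24 tested rose and none fell, against 4.51% and 0.973% of all genes. HMOX1, which degrades heme, lay at 34.2 and 34.4 CPM against 1229 and 1192 CPM (5.14, SE 0.07, adjusted p 1.3e-15). GCLM and GCLC, the subunits of the enzyme that limits glutathione synthesis, changed by 2.05 and 1.25, the sulfiredoxin SRXN1 by 1.84, the thioredoxin reductase TXNRD1 by 1.50 and the cystine transporter SLC7A11 by 1.07. In all, 13 of 24 genes of the list rose (54.2%, against 23.7% of all genes) and 4 fell (16.7%, against 23.4%), with a median of 0.36. The 4 that fell were the pentose phosphate enzymes PGD (-0.25), TALDO1 (-0.20) and TKT (-0.12) and the thioredoxin TXN (-0.21). NQO1, often used to read NRF2 activity, changed by 0.34, and the ferritin heavy chain FTH1 lay at 475 and 484 CPM against 439 and 472 CPM with no call. The metallothioneins, which bind zinc and copper and rise with metal load, went down in the 2 cases tested. MT1X lay at 7.78 and 7.96 CPM against 2.69 and 2.66 CPM (-1.56, SE 0.17) and MT2A at 9.84 and 9.26 CPM against 5.61 and 4.76 CPM (-0.89, SE 0.18).

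The integrated stress response had the highest median of the lists, 2.46, with 14 of 16 genes higher and 1 lower. ATF3 lay at 1.75 and 1.41 CPM against 93.2 and 75.3 CPM (5.72, SE 0.20), CHAC1, which degrades glutathione, at 2.11 and 2.22 CPM against 93.6 and 72.4 CPM (5.25, SE 0.20), and DDIT3, which encodes CHOP, at 9.59 and 10.5 CPM against 298 and 253 CPM (4.78, SE 0.14). SESN2, an inhibitor of mTORC1 signaling that ATF4 and p53 can both raise, lay at 16.6 and 13.2 CPM against 313 and 280 CPM (4.31, SE 0.11, adjusted p 3.4e-13). The ATF4 messenger itself rose less, from 154 and 156 CPM to 348 and 347 CPM (1.17, SE 0.04), CEBPG, a partner of ATF4, changed by 1.46, and ATF5 fell by 0.25. Genes of amino acid supply rose in 15 of 19 cases and fell in none (median 1.00). Asparagine synthetase ASNS lay at 52.0 and 51.2 CPM against 223 and 236 CPM (2.15, SE 0.05), and the serine enzyme PSAT1 and the transporter SLC38A2 changed by 1.55 and 1.50. Of 20 aminoacyl-tRNA synthetases 14 rose and 4 fell (median 0.33), led by alanyl-tRNA synthetase, listed as AARS, at 1.55.

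Immediate early genes rose almost without exception, in 21 of 22 members of the AP-1 and EGR list (median 1.82). JUN lay at 18.2 and 16.3 CPM against 353 and 250 CPM (4.12, SE 0.19), FOS at 7.37 and 8.39 CPM against 99.5 and 66.3 CPM (3.39, SE 0.25) and EGR1 at 141 and 155 CPM against 1073 and 888 CPM (2.73, SE 0.12). For these genes UCI-1014 library 1 stood above library 2, and the difference between the 2 libraries was larger than for HMOX1 or ASNS. EGR2 changed by 5.66, EGR4 by 4.81 and the small MAF protein MAFF by 4.77. The related list of KLF and dual-specificity phosphatase genes rose in 14 of 19 cases and fell in 3 (median 1.26). KLF4 had 2 counts with DMSO and 136 with UCI-1014, a ratio of 71.0 with a 95% counting interval of 19.3 to 592. The 3 that fell were KLF13 and DUSP7, both by 0.59, and DUSP6 by 0.22. NF-kB subunits and feedback genes rose in 10 of 12 cases (median 0.63), led by the deubiquitinase TNFAIP3 at 2.79. YAP and TEAD targets rose in 11 of 19 cases and fell in 3 (median 0.59), among them CYR61 at 1.88 and LATS2 at 1.79. ANKRD1 had no counts with DMSO and lay at 2.45 and 1.07 CPM with UCI-1014. The mean of these was 11.1-fold above a floor of 3 counts in a DMSO library of mean size.

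Genes that wild-type p53 can raise moved in both directions, with the larger changes upward. Of 36 tested, 17 rose (47.2%, against 23.7% of all genes), 6 fell (16.7%, against 23.4%) and 13 were not called. Over 2-fold, 11 of the 36 rose and none fell, against 4.51% and 0.973% of all genes. The median was 0.12, which became -0.02 with library size scaling. CDKN1A, the cell cycle inhibitor p21, lay at 7.78 and 9.20 CPM against 97.7 and 99.6 CPM (3.54, SE 0.08, adjusted p 2.5e-13). PMAIP1 (NOXA), GADD45A and BTG2 changed by 1.95, 1.92 and 1.55, and the death receptor TNFRSF10B by 1.14. MDM2, the p53 ubiquitin ligase, lay at 130 and 130 CPM against 138 and 131 CPM (0.05, SE 0.04, adjusted p 0.35). ZMAT3, DDB2, XPC, SESN1 and CCNG1 had no call either, and the 6 that fell were POLH (-0.79), TRIAP1 (-0.66), BCL2L1 (-0.32), TP53I11 (-0.27), FDXR (-0.25) and AEN (-0.22).

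Single genes with 0 or few counts in DMSO stood among the largest rises. MUC5AC, a secreted mucin, had no DMSO counts and 140 with UCI-1014, and CD300LB, a myeloid receptor, had none against 92. The means of their UCI-1014 libraries were 24.6-fold and 16.3-fold above the floor of 3 counts in a DMSO library of mean size. With 1 DMSO count each, the ratio was 560 (100 to 22180) for the HSP70 pseudogene HSPA7, 128 (22.6 to 5111) for the nicotinic receptor subunit CHRNA2 and 82.5 (14.4 to 3297) for the activin subunit INHBB. These intervals cover counting error only.

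Replication-dependent histone genes, whose main messengers lack a poly(A) tail, were also higher. Of 21 tested 15 rose and 1 fell (median 1.54), at low levels that summed to 67.3 CPM with DMSO. HIST1H2AC lay at 1.03 and 1.73 CPM against 8.06 and 8.44 CPM (2.58, SE 0.24) and HIST2H2BE at 3.76 and 3.68 CPM against 14.9 and 13.2 CPM (1.91, SE 0.14). The linker histone gene HIST1H1C fell by 0.57. Zinc finger genes with a ZNF name rose in 172 of 477 cases (36.1%, against 23.7% of all genes). They fell in 68 (14.3%, against 23.4%), with a median of 0.16.

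**Figure D4:**
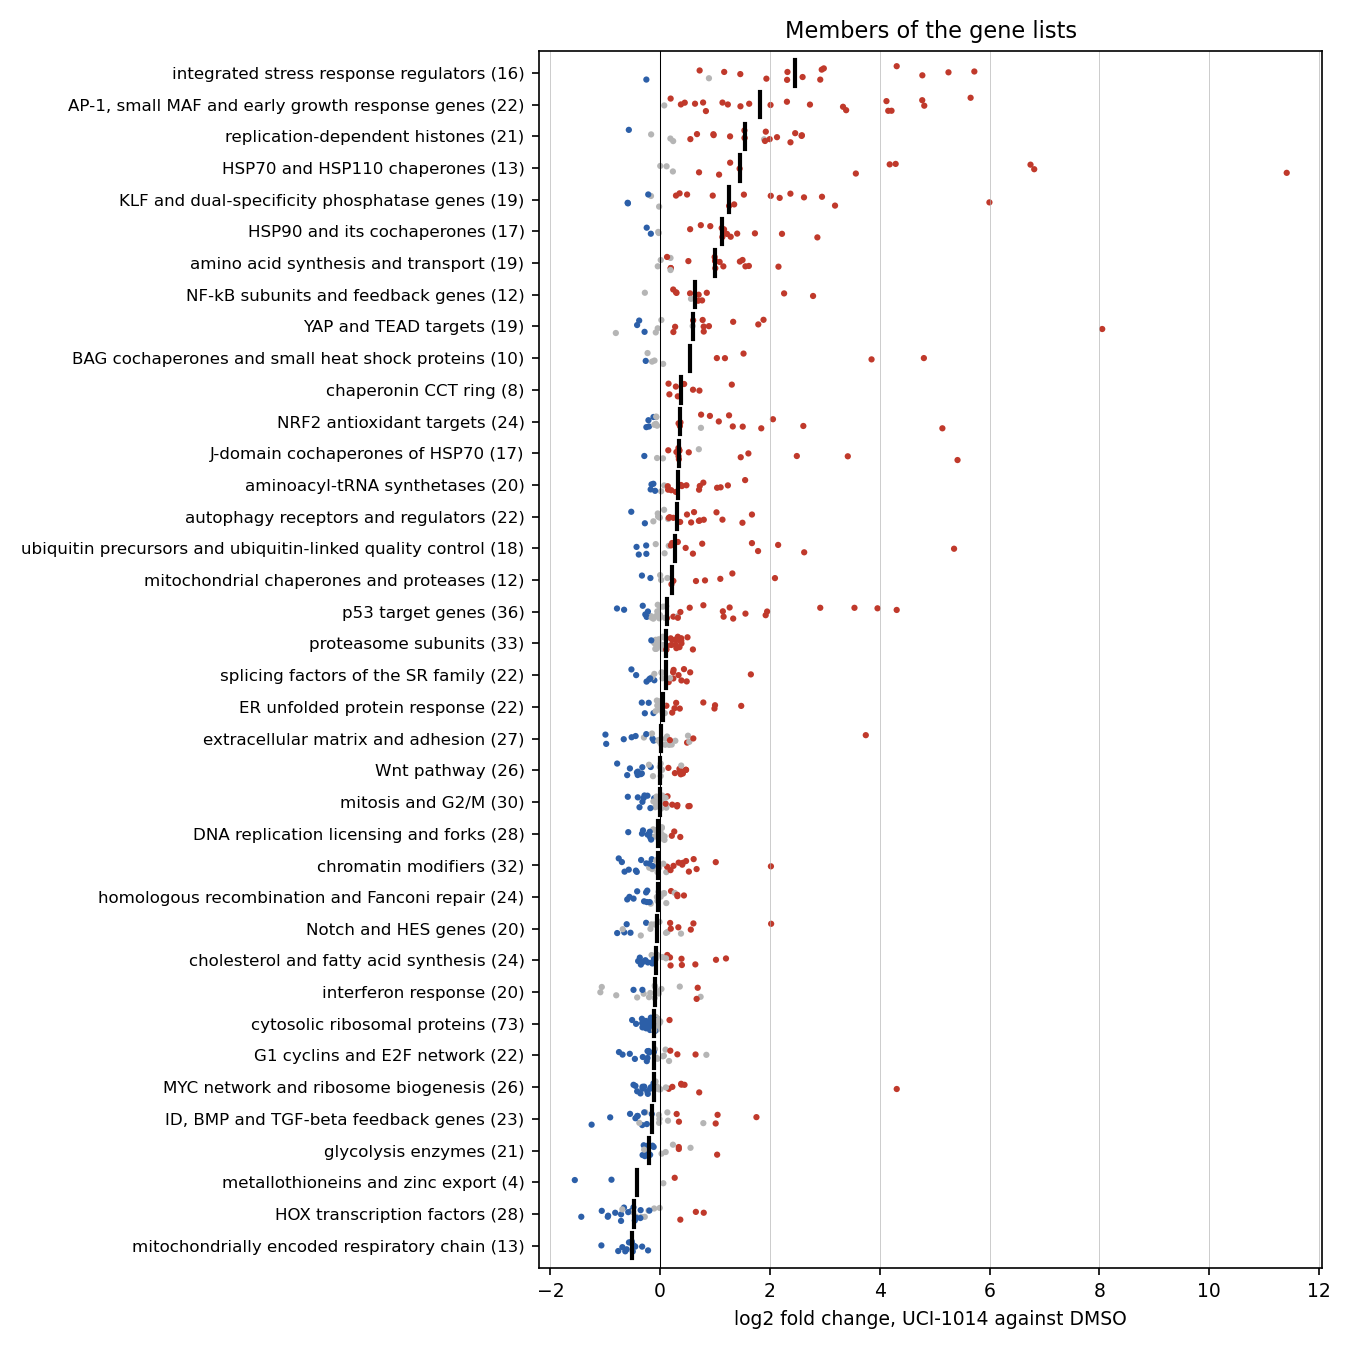
Each point is a member of a gene list at its log2 fold change for UCI-1014 against DMSO, red for rises called, blue for falls called and grey for no call, with the number tested in brackets and the median as a black line. The lists are sorted by median, from the integrated stress response at 2.46 to the mitochondrially encoded genes at -0.52.

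The falls were broad and shallow. The 15 largest falls by the naming rule were mostly low transcripts, and several were read-through transcripts, pseudogenes or members of near-identical families, whose reads are hard to place. Among all called genes 11 fell over 16-fold, 8 of them without a gene name, and none had a DMSO mean over 3.09 CPM. The largest of the 15 was the read-through gene TVP23C-CDRT4, at 2.89 and 2.87 CPM against 0.239 and 0 CPM (-4.62, SE 0.56). The others in order of size were ZNF320 (-3.18), SMIM11A (-2.54), FABP5P7 (-2.46), MINOS1-NBL1 (-1.98), the vasopressin receptor AVPR2 (-1.89), TSSK5P (-1.81), FOXD4L4 (-1.67), RHBDL1 (-1.67), the potassium channel KCNC1 (-1.63), HSD17B1P1 (-1.60), the adhesion receptor ICAM3 (-1.58), MT1X, the repressor ZHX2 (-1.53) and ERLEC1P1 (-1.51). SMIM11A was at 13.5 and 6.12 CPM with DMSO, and its call was lost without DMSO library 1 (adjusted p 0.077) or without UCI-1014 library 2 (adjusted p 0.054). The calls on MINOS1-NBL1 without DMSO library 2 (adjusted p 0.056) and on ERLEC1P1 without DMSO library 2 (0.27) or UCI-1014 library 2 (0.17) were lost too. Of the 138 genes lowered over 2-fold, 89 had a mean under 5 CPM, 13 were read-through genes and 19 pseudogenes.

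Only 34 of the 138 had a mean over 10 CPM, and they are given here as a group chosen after their values were seen. Their falls ran from -1.51 (MAMSTR, a coactivator of muscle genes) to -1.0. The groups did not overlap in any of them, which was true of 6674 of the 6677 called genes and so adds nothing to the call. NOG, the BMP antagonist noggin, lay at 68.1 and 64.0 CPM against 24.4 and 30.9 CPM (-1.25, SE 0.09, adjusted p 4.6e-08). PTCH1, the Hedgehog receptor, lay at 191 and 186 CPM against 92.6 and 81.2 CPM (-1.12, SE 0.06), and the T-box repressor TBX2 at 241 and 251 CPM against 117 and 116 CPM (-1.08, SE 0.04). The factors SOX18 (-1.35) and SOX12 (-1.01), the Polycomb subunit CBX2 (-1.16), the coactivator PPARGC1B (-1.30) and HOXC11 (-1.06) belong to the same group. Small subunits of larger machines were there as well, with POLR2L of RNA polymerase II (-1.17), LSM7 (-1.04) and GEMIN6 (-1.14) of snRNP assembly and function, TOMM6 (-1.04) of the mitochondrial import pore and NDUFA2 (-1.0) of complex I.

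HOX transcription factors, which set position along the body axis, fell in 16 of 28 cases and rose in 3 (median -0.47). HOXA11 fell most, by 1.44, and HOXC9 and HOXB8 fell by 0.95 each, while HOXA5 changed by 0.65. In the Notch list 5 of 20 genes fell (25%) and 6 rose (30%), near the shares of 23.4% and 23.7% over all genes. The receptor NOTCH3 lay at 315 and 327 CPM against 185 and 188 CPM (-0.78, SE 0.04). In the Wnt list 10 of 26 fell (38.5%) and 9 rose (34.6%). There AXIN2, a feedback target of the pathway, lay at 518 and 531 CPM against 291 and 318 CPM (-0.78, SE 0.05), and the coreceptors LRP5 and LRP6 changed by -0.60 and 0.38. Of 23 genes of BMP and TGF-beta signaling 10 fell (43.5%) and 5 rose (21.7%, near the 23.7% of all genes). The falls were led by NOG and SMAD6 (-0.91), the rises by ID4 (1.75) and the pseudoreceptor BAMBI (1.05). In the matrix and adhesion list 8 of 27 genes fell (29.6%) and 4 rose (14.8%), and 5 of the 8 encode basement membrane chains. LAMA5 lay at 140 and 137 CPM against 65.9 and 72.5 CPM (-1.0, SE 0.06), LAMA1 fell by 0.98 and LAMC1 by 0.14, and COL4A1 and COL4A2 fell by 0.52 and 0.45, while THBS1 changed by 3.75.

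Among genes of growth, ribosomal protein genes changed by small amounts. Of 73 cytosolic ribosomal protein genes 43 fell and 1, RPS9, rose. The most abundant of them, RPLP0, changed by -0.05 with no call, and the largest fall was that of RPL24, from 341 and 344 CPM to 227 and 253 CPM (-0.51, SE 0.05). Genes of the MYC network and ribosome biogenesis fell in 13 of 26 cases and rose in 7 (median -0.11). MYC lay at 344 and 348 CPM against 256 and 282 CPM (-0.36, SE 0.04), and the MYC antagonist MXD1 at 4.95 and 4.28 CPM against 98.6 and 85.1 CPM (4.31, SE 0.15). Of 21 glycolysis genes 13 fell and 3 rose (median -0.21), with GAPDH at 2185 and 2236 CPM against 1878 and 1926 CPM (-0.22, SE 0.03) and the glucose transporter SLC2A3 at 1.04.

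In the cell cycle lists, 11 of 22 G1 genes fell and 3 rose. The cyclins CCNE1 and CCNE2 fell by 0.69 and 0.75. Replication genes fell in 8 of 28 cases (28.6%, against 23.4% of all genes and 30.5% of those at 20 to 100 CPM) and rose in 3. The sliding clamp PCNA lay at 228 and 229 CPM against 148 and 157 CPM (-0.58, SE 0.04). Of 30 mitosis genes 9 fell (30%) and 7 rose (23.3%), near the shares of 23.4% and 23.7% over all genes, with the separase ESPL1 at -0.59 and the kinase AURKA at 0.54. Homologous recombination and Fanconi genes fell in 9 of 24 cases (37.5%) and rose in 4 (16.7%). The partners BRCA1 and BARD1 moved apart, BRCA1 by 0.43 (SE 0.06) and BARD1 by -0.60 (SE 0.06). Among chromatin modifiers 12 of 32 rose (37.5%) and 11 fell (34.4%). The H3K27 demethylase gene KDM6B lay at 79.2 and 76.6 CPM against 312 and 319 CPM (2.02, SE 0.04), and the histone methyltransferase subunits SETD1B (-0.76) and KMT2B (-0.70) and the SWI/SNF subunit ARID1A (-0.65) fell. SR-family splicing factors and their kinases rose in 10 of 22 cases (45.5%) and fell in 6 (27.3%, near the 23.4% of all genes), with CLK1 at 1.65 and CLK2 at -0.52. Cholesterol and fatty acid genes rose in 8 of 24 cases (33.3%) and fell in 9 (37.5%), with the fatty acid synthase FASN at -0.37. The interferon list was nearly flat, with 2 of 20 higher and 2 lower.

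All 13 protein-coding genes of the mitochondrial genome fell (median -0.52). MT-CO3 lay at 6005 and 6798 CPM against 3499 and 4037 CPM (-0.76, SE 0.06, adjusted p 9.7e-08), MT-ND4 at 4707 and 5386 CPM against 3442 and 3675 CPM (-0.50, SE 0.05) and MT-CO1 at 14967 and 16597 CPM against 13034 and 14047 CPM (-0.22, SE 0.04). MT-ATP8, which overlaps MT-ATP6, had the largest fall at -1.07. DMSO library 2 stood above DMSO library 1 for MT-CO3, MT-ND4 and MT-CO1, and for MT-CO1 this difference was larger than the gap between the groups, which did not overlap. Of the 6 largest losses in CPM, 5 were genes of this list and the other was the beta-tubulin TUBB, at 3159 and 3238 CPM against 2210 and 2307 CPM (-0.50, SE 0.03). The 10 largest losses took 18.0% of all CPM lost by genes that fell.

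Direction also differed with gene size. Among protein-coding genes split into quintiles by genomic span, 34.5% of the shortest (up to 11090 bases) were lower and 17.9% higher, whereas 17.7% of the longest were lower and 24.9% higher. The median log2 fold change went from -0.12 in the shortest quintile to 0.03 in the longest. Large changes in both directions were more frequent in genes with few exons. Of 302 single-exon genes 16.6% rose and 3.97% fell over 2-fold, against 2.58% and 0.318% of genes with over 10 exons. By span, 6.28% of the shortest quintile rose and 2.43% fell over 2-fold, against 2.84% and 0.411% of the longest. The share of estimated counts that could be matched to an annotated transcript was 95.1% in both DMSO libraries and 91.2% and 91.5% with UCI-1014, a difference larger than those between classes given next, and its part in them was not tested. Transcripts annotated as retaining an intron took 2.31% and 2.28% of the matched estimated counts with DMSO and 2.16% and 2.19% with UCI-1014, but 4.15% and 4.11% against 4.20% and 4.17% of TPM, so their direction depended on the scale. Transcripts annotated for nonsense-mediated decay took 2.28% and 2.25% of estimated counts with DMSO and 2.52% and 2.47% with UCI-1014, and were higher in TPM too (2.56% and 2.50% against 2.89% and 2.81%).

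UCI-1014 was also tested against UCI-1001 in the same fit. In this direct contrast 4406 of 14177 genes differed (31.1%), 2430 higher with UCI-1014 (17.1%) and 1976 lower (13.9%). Because the UCI-1014 dose is not given, compound and dose cannot be told apart here. Both comparisons against DMSO share the DMSO libraries, so their values are given side by side only. HSPA1A lay at 6441 and 7151 CPM with UCI-1001 and was 1.85 higher on the log2 scale with UCI-1014 (SE 0.05, adjusted p 1.7e-11). HMOX1 lay at 295 and 351 CPM with UCI-1001 and was 1.91 higher (SE 0.06), SRXN1 at 100 and 109 CPM and 1.44 higher (SE 0.05), CDKN1A at 25.3 and 27.9 CPM and 1.89 higher (SE 0.07), and SESN2 2.30 higher (adjusted p 1.6e-10). For each of these genes both UCI-1014 libraries lay above both UCI-1001 libraries.

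Some other genes differed less between the compounds, and some were lower with UCI-1014. FOS lay at 57.0 and 92.9 CPM with UCI-1001, overlapping the UCI-1014 libraries (direct difference 0.14, SE 0.18, adjusted p 0.61), and CYR61 at 109 and 133 CPM (0.16, SE 0.08, adjusted p 0.18). JUN and EGR1 were 0.48 and 0.41 higher with UCI-1014 (adjusted p 0.018 and 0.010). Of the 13 mitochondrial genes only MT-CO3 differed (-0.26, SE 0.06, adjusted p 0.0038), and MT-ND5 lay at 2428 and 2351 CPM with UCI-1001 against 2287 and 2582 CPM with UCI-1014 (0.03, SE 0.05). NOG lay at 64.0 and 57.2 CPM with UCI-1001 and was lower with UCI-1014 (-1.12, SE 0.09, adjusted p 4.7e-07). Of the 73 ribosomal protein genes 33 were lower and none higher, against 13.9% lower and 17.1% higher over all genes.

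**Figure D5:**
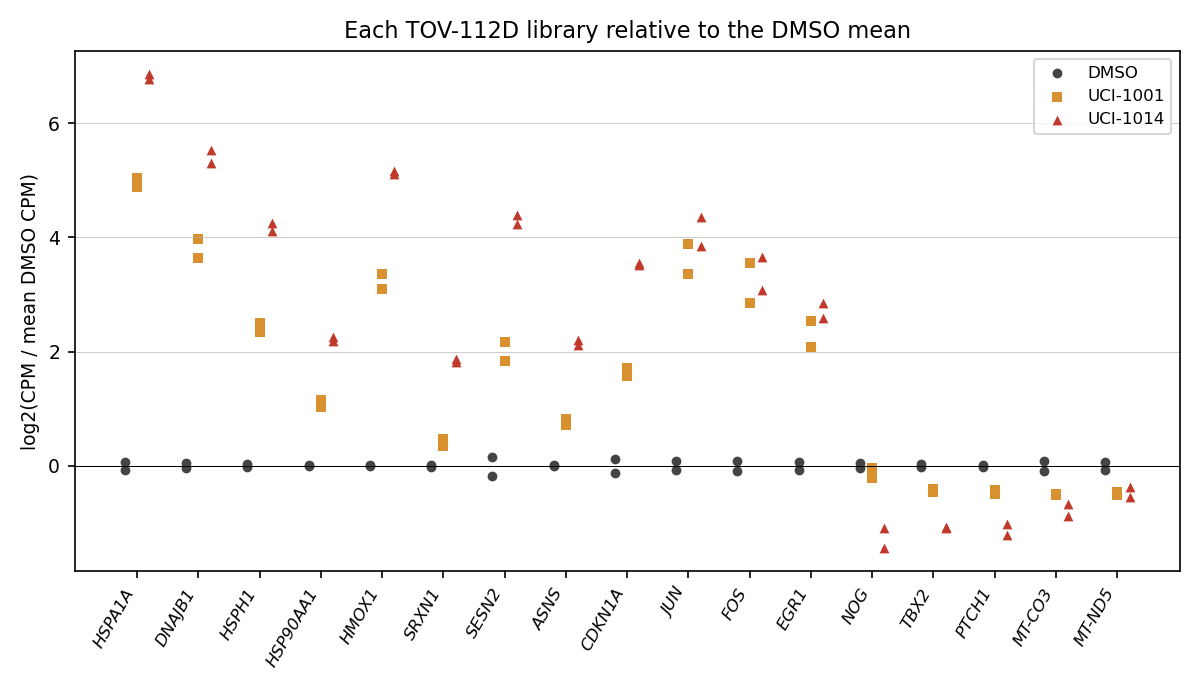
Each TOV-112D library as log2 of its CPM over the mean DMSO CPM for 17 genes, with DMSO as circles, UCI-1001 as squares and UCI-1014 as triangles. For HSPA1A, HMOX1, SRXN1, ASNS and CDKN1A the UCI-1014 libraries stand above the UCI-1001 libraries, for FOS and MT-ND5 the 2 treatments overlap, and for NOG and TBX2 the UCI-1014 libraries are lowest.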

How the data were processed

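RNA from TOV-112D cells was sequenced by a service provider. The authors quantified reads against GRCh38 with kallisto 0.48.0, summed estimated counts per Ensembl gene and deposited the sums as whole-number counts, and their own test used DESeq2 1.38.3. The annotation release of their index is not given in the sources used here, nor is strandedness. They also deposited per-transcript estimated counts and TPM for each library, used here only for shares of transcript classes.

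Counts of rows with the same gene name were summed (40295 rows to 36486, 1834 names standing for 5643 identifiers), 8043 unnamed rows stayed under their identifiers, and 25 date-like names were not named. edgeR 4.0.16 in R 4.3.3 (TMM, filterByExpr, glmQLFit and glmQLFTest, Benjamini-Hochberg) was fitted once to the 6 TOV-112D libraries. A call is an adjusted p under 0.05. Values are TMM-scaled CPM, and a floor is 3 counts. SE is the log2 fold change over the root of the F statistic. Gene spans are GENCODE 44, promoters RefSeq GRCh38.p14.

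Gene lists and members were chosen with earlier results of these data known. Named genes were the 5 marker genes, 15 rises and 15 falls of greatest size among called genes whose groups did not overlap and whose mean reached 1 CPM, the 6 largest gains and 6 largest losses in CPM, the 6 most abundant small rises and 6 small falls, and per list up to 4 largest changes and the most abundant member. Other list members and genes named in the text were added after their values were seen. The scripts were tested on simulated data. Alternatives used DESeq2 1.42.0, other scalings, filters, a replicate block, single identifiers, a fold of 1.2 and left-out libraries.

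The common coefficient of variation between libraries was 3.59%. Chi-square per degree of freedom between the libraries of a group was 2.11 for DMSO and 3.91 for UCI-1014, so they differed by more than sampling noise. Depth was 17762027 to 20717898 counts. Deviations of same-numbered libraries correlated at -0.02 between DMSO and UCI-1014, so the numbers were not taken to pair samples. Some genes are not reported here.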

Additional observations from a re-analysis of the deposited data

How the results depend on the processing

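With each group at 2 libraries, the precision rests on a spread pooled over 6 libraries, and where 1 was left out the lone library was assumed to vary like the others. Depth limits calls below about 1 CPM. Calls went from 6677 to 4702 with DESeq2 (2136 lower, 76 lowered over 2-fold, 2639 different from UCI-1001), to 2924 against a fold of 1.2 (1863 higher, 1061 lower, 1070 different from UCI-1001), and with library size scaling to 5508 lower and 246 lowered over 2-fold. Other alternatives stayed within 1.5 times the counts reported. Leaving out 1 library gave 5060 to 6033 genes changed, 2729 to 3189 raised, 2241 to 2844 lowered, 552 to 689 raised over 2-fold, 109 to 136 lowered over 2-fold, and 3011 to 3804 different from UCI-1001. The replicate block gave 6307 changed genes and 3882 against UCI-1001, and a crossed block, chosen after seeing that same-numbered UCI-1001 and UCI-1014 libraries deviated oppositely (correlation -0.27), gave 4979. With library size scaling 6629 of the 6677 calls kept their direction and 5681 were still called in it. With DESeq2 4701 of 6615 were still called, and without 1 library 4918 to 5658.

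Named genes that changed sign with library size scaling were HNRNPU (-0.025), PSMD3 (-0.0090), HSP90B1 (-0.10), SLC30A1 (-0.078), PLK2 (-0.012), TOP2A (-0.13) and FANCI (-0.068). Leaving out 1 library gave log2 fold changes of -0.0096 to 0.15 for SLC30A1, -0.040 to 0.019 for BMPR2, -0.054 to 0.047 for JAG1 and -0.038 to 0.013 for IFIH1, none of which was called. Medians of 6 of the 38 lists changed sign with library size scaling (proteasome, endoplasmic reticulum, p53 target, Wnt, SR-family and matrix), and 37 moved by more than the spread between libraries. Without 1 library 12 to 21 medians moved so. The Wnt median, near 0, turned negative without DMSO library 1 (-0.012), DMSO library 2 (-0.0094) or UCI-1014 library 2 (-0.023), and the Notch median turned positive without DMSO library 2 (0.018). The mitosis median, also near 0, turned positive with relative log expression factors (0.0046), in the fit of the 4 libraries alone (0.0040) and without UCI-1014 library 1 (0.017).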
